A study of Mus musculus with 6 samples.

Results

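Messenger RNAs for 9 hepatocyte transcription factors and nuclear receptors (Hnf4a, Cebpa, Foxa2, Ppara, Nr1h4, Nr0b2, Nr1i2, Nr1i3 and Rxra) were examined in mouse liver. They were taken by gene symbol from a count table of 24411 genes, which held all 9. Liver at postnatal day 19 had been sequenced as RNA after ribosomal depletion in 3 p62+/+ mice and in 3 p62S351E/+ mice. The p62S351E/+ mice are heterozygous for a knock-in in Sqstm1, the gene of the autophagy receptor p62, that puts Glu in place of Ser351 to imitate phosphorylation. The p62+/+ mice are wild type. According to the methods, the mutation was made by prime editing of RENKA4, an embryonic stem cell line derived from C57BL/6N mice, and was transmitted by a single male chimera whose sperm was used for in vitro fertilization. The change is in the germline and so is not restricted to hepatocytes. The paper reports that p62S351E/+ mice of younger ages grew poorly and had low blood glucose, which it reads as malnutrition. Genotype and nutrition therefore cannot be told apart in these livers. The sources used here give neither sex nor batch for any mouse.

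HNF4A, C/EBPA and FOXA2 are DNA-binding factors that establish and keep the hepatocyte gene program. HNF4A belongs to the nuclear receptors, as do the products of the other 6 genes, and most of these bind small lipophilic ligands: PPARA senses fatty acids, FXR (Nr1h4) senses bile acids, and PXR (Nr1i2) and CAR (Nr1i3) respond to drugs and other foreign compounds. RXRA is the common partner with which PPARA, FXR, PXR and CAR bind DNA, and SHP (Nr0b2) lacks a DNA-binding domain and represses other receptors.

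The libraries were shallow for these genes. Total expected counts, which are the reads that RSEM assigns to each gene, lay between 8696712 and 10341622 per mouse, but only 134911 to 315436 (1.30% to 3.30%) fell outside Rn45s, Lars2 and Mir6236. The 9 regulators together had 294 to 669 counts per mouse. Transcripts of 10 brain marker genes summed to 2124, 2209 and 1937 counts in the p62+/+ group but to 29, 9 and 2094 counts in the p62S351E/+ group. For Xist, the female-specific RNA of the silenced X chromosome, there were 70.8, 1505 and 1071 counts in the p62+/+ group and 1, 0 and 1537 counts in the p62S351E/+ group. p62S351E/+ mouse 3 therefore stood with the p62+/+ mice in brain transcripts, and with p62+/+ mice 2 and 3 in Xist, and its effect is given where it mattered. The part of brain transcripts and of Xist in the results below was not tested beyond the fits that are named.

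The liver label was checked against 15 hepatocyte markers, all of which were present. Their summed level was 17430, 16068 and 16644 normalized counts in the p62+/+ group and 24732, 38889 and 17802 in the p62S351E/+ group, so the 3 p62S351E/+ mice were the 3 highest. Normalized counts are expected counts divided by a library size scaled with TMM, which assumes that most genes do not differ between libraries. Kidney tubule markers were at 0 in every library, pancreas acinar markers summed to 0 to 4 counts and intestine markers to 2 to 8 counts. In bulk liver, fewer cells of a type and less RNA per cell cannot be told apart.

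Sqstm1 itself had 77.8, 73.0 and 86.4 normalized counts in the p62+/+ group and 104.7, 97.0 and 89.9 in the p62S351E/+ group. The difference of 0.30 log2 (SE 0.20) did not pass the test (adjusted p = 0.498, edgeR). The edited codon cannot be read from a count table, so this value does not check the genotype.

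Genotypes were compared with the quasi-likelihood test of edgeR, which was run on all 5945 genes with enough counts. Calls required a Benjamini-Hochberg adjusted p below 0.05 together with a log2 fold change above 1 in size. Foxa2 did not pass the filter, so 8 of the 9 regulators were tested. None of the 8 was called higher and none lower, beside 0.841% of all tested genes called higher and 0.0841% called lower. DESeq2 and limma-voom each called 1 of the 8, Nr1i3. At an unadjusted p below 0.05, edgeR gave 3 of the 8 (Nr1i3, Nr0b2 and Hnf4a), whereas 14.6% of all tested genes had such a p. Of these, Nr0b2 passed the filter through its p62S351E/+ counts, as given below.

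Although edgeR called no regulator, most values were above 0. The log2 fold change (p62S351E/+ over p62+/+) was above 0 for 7 of the 8 and had a median of 0.40, against -0.03 over all tested genes. For 5 of the 8 (62.5%), every p62S351E/+ mouse lay above every p62+/+ mouse, which held for 12% of all tested genes. No regulator had every p62S351E/+ mouse below every p62+/+ mouse, the pattern of 14.7% of all tested genes. The level of these values depends on how libraries are scaled. When library size alone was used, the median of the 8 was -0.27, while that of all tested genes was -0.68. When libraries were scaled to the summed hepatocyte markers, an alternative chosen after the data were seen, these medians were -0.16 and -0.59. The filter also bears on these values. Nr0b2, 1 of the 5, had raw counts of 11, 9 and 6 (p62+/+) against 12, 10 and 19. Only mouse 1 of the p62+/+ group reached the minimum count of 10, so Nr0b2 was tested through its p62S351E/+ counts. Foxa2, with 12, 15 and 8 (p62+/+) against 1, 9 and 7, was left out. Without the filter, the median over all 9 regulators was 0.30, beside -0.16 over all genes.

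**Figure D1:**
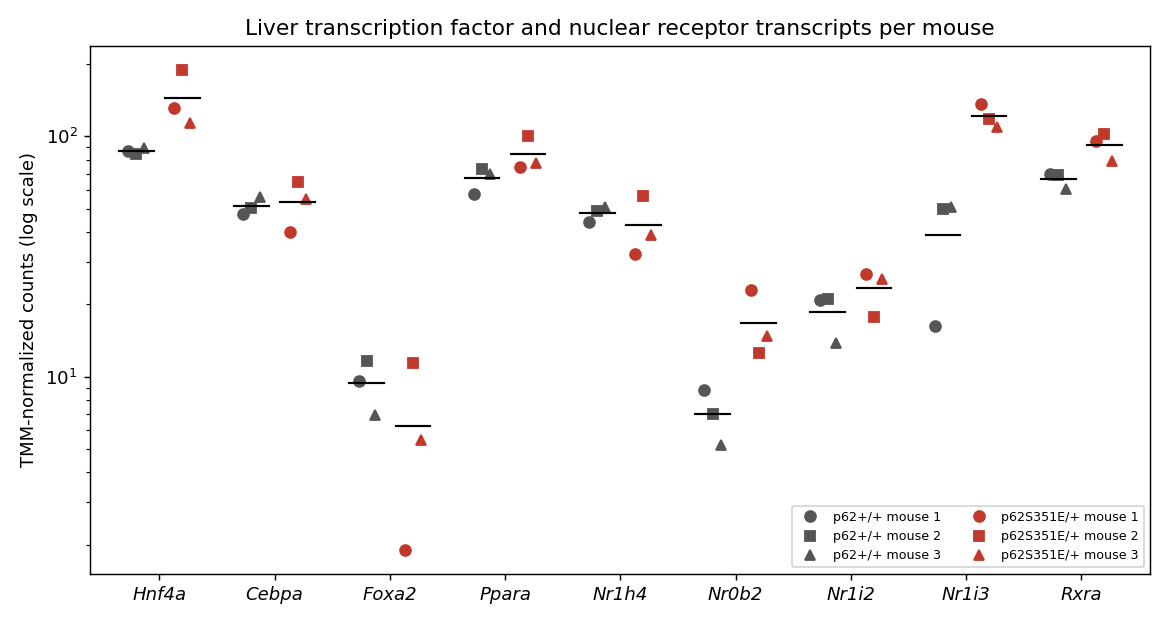
TMM-normalized counts (log axis) of the 9 regulators, with 1 point per mouse, grey for p62+/+ and red for p62S351E/+, and a line at each group mean (n = 3). Nr1i3 lies between 16.3 and 50.9 in the p62+/+ group and between 109.3 and 135.8 in the p62S351E/+ group, whereas Cebpa, Nr1h4, Nr1i2 and Foxa2 overlap between the genotypes.

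Upstream sequences are shown for the 3 regulators with the largest log2 fold changes, Nr1i3, Nr0b2 and Hnf4a. They are read 5′ to 3′ from RefSeq promoters of GRCm38.p6, end at the base before the annotated start of the gene, and carry in capitals every match to a motif searched on both strands.
Nr1i3 (plus strand, chr1:171213720-171213969): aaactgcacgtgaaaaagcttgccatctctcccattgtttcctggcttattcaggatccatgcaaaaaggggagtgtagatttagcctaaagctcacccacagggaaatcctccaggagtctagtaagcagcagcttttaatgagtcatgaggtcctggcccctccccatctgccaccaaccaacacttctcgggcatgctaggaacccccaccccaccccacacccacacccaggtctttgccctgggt
Nr0b2 (plus strand, chr4:133553126-133553375): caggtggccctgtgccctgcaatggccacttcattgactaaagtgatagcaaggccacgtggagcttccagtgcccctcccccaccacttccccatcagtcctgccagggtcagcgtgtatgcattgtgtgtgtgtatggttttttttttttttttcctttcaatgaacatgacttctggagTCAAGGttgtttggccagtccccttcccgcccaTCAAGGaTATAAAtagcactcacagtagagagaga
Hnf4a (plus strand, chr2:163506607-163506807): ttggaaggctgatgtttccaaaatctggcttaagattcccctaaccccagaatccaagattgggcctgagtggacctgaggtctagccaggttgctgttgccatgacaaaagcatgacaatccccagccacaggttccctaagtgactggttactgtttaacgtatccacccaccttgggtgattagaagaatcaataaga

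The motifs were the nuclear receptor half-site AGGTCA, the HNF4 site CAAAGTCCA, the FOXA site TGTTTAC, the C/EBP site TTGCNNAA and the core of the antioxidant response element TGACNNNGC. The core of the NR5A site, TCAAGG, and the TATA box, TATAAA, were added after the sequences had been seen. The Nr0b2 window held TCAAGG at -68 and again at -35, counted from the start, and TATAAA at -28. The Nr1i3 and Hnf4a windows held no match, which says only that these letters are not in these windows. For Hnf4a, the 201 bases shown lie before its first annotated start. Another RefSeq window of Hnf4a, from 163546905, is not shown because an annotated exon covers its first base. Which start these livers used was not tested. In windows of 250 bases before 32851 RefSeq starts, AGGTCA was found in 14%, CAAAGTCCA in 0.384%, TGTTTAC in 3.17%, TTGCNNAA in 9.56%, TGACNNNGC in 10.2%, TCAAGG in 12.5% and TATAAA in 12.4%.

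Hnf4a, which encodes a nuclear receptor that occupies a large share of hepatocyte enhancers, lies on chromosome 2 of GRCm38 (mm10) from 163506808 to 163572910. It had 108, 109 and 104 raw counts in the p62+/+ group and 69, 150 and 146 in the p62S351E/+ group. Normalized, these were 86.7, 84.6 and 89.8 against 131.4, 189.0 and 113.1, or 87.0 ± 2.62 and 144 ± 39.6 (SD, n = 3). All 3 p62S351E/+ mice were above all p62+/+ mice, and the p62+/+ mice lay close together. Hnf4a thus had a log2 fold change of 0.73 (SE 0.24, 95% interval 0.18 to 1.28) with an adjusted p of 0.241 from edgeR, so the difference did not pass the threshold. Without p62S351E/+ mouse 3 it was 0.88 with an adjusted p of 0.0119 in the same edgeR test, still below the fold threshold. That fit called 1308 genes in all, with brain transcripts divided exactly by genotype. With brain markers as a covariate, the log2 fold change of Hnf4a was 0.32 (SE 0.25, adjusted p = 0.922, edgeR). Relative to hepatocyte markers the difference was small: per 1000 hepatocyte marker counts, Hnf4a had 4.97, 5.27 and 5.40 counts in the p62+/+ group and 5.31, 4.86 and 6.35 in the p62S351E/+ group. The groups overlapped on that scale, and the log2 fold change under hepatocyte marker scaling was 0.08.

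Cebpa, a bZIP factor of metabolic genes, is encoded by a gene with a single exon in its longest coding transcript on chromosome 7 from 35119293 to 35121928. Its raw counts were 59, 65 and 65 in the p62+/+ group and 21, 51 and 71 in the p62S351E/+ group. Its normalized counts were 47.3, 50.5 and 56.1 against 40.0, 64.3 and 55.0, and the groups overlapped. For Cebpa the log2 fold change of 0.05 (SE 0.24, 95% interval -0.48 to 0.59, adjusted p = 0.926, edgeR) changed sign to -0.55 with library size only. An antisense transcript, Gm45091, shares 51 exonic bases with Cebpa.

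Foxa2, a forkhead factor that opens liver chromatin, is on chromosome 2 from 148042877 to 148046969. It had only 12, 15 and 8 raw counts in the p62+/+ group and 1, 9 and 7 in the p62S351E/+ group. The single count in p62S351E/+ mouse 1, the library with the fewest counts outside the 3 dominant genes, was the lowest, and the groups overlapped in normalized counts (9.63, 11.6 and 6.91 against 1.90, 11.3 and 5.42). In a fit without the filter on low counts its log2 fold change was -0.56 (SE 0.53, adjusted p = 0.727, edgeR). A difference of this size was close to its SE and was not resolved.

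Ppara, which drives fatty acid oxidation and ketogenesis in the fasted and suckling liver, is on chromosome 15 from 85734983 to 85802819. It had 72, 94 and 81 raw counts in the p62+/+ group and 39, 80 and 100 in the p62S351E/+ group. Normalized, the values were 57.8, 73.0 and 70.0 against 74.3, 100.8 and 77.5. The groups did not overlap, but the highest p62+/+ mouse (73.0) nearly met the lowest p62S351E/+ mouse (74.3). For Ppara this gave a log2 fold change of 0.33 (SE 0.22, 95% interval -0.17 to 0.83, adjusted p = 0.499, edgeR), and it was -0.32 with library size only.

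Rxra, encoding the partner of PPARA, FXR, PXR and CAR, is on chromosome 2 from 27676440 to 27762957. It had 87, 89 and 70 raw counts in the p62+/+ group and 50, 81 and 102 in the p62S351E/+ group. Normalized, these were 69.8, 69.1 and 60.5 against 95.2, 102.1 and 79.0, with all p62S351E/+ mice above all p62+/+ mice. Rxra had a log2 fold change of 0.47 (SE 0.20, adjusted p = 0.343, edgeR). It changed sign to -0.23 with library size only and to -0.13 under hepatocyte marker scaling.

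FXR and SHP form a negative feedback on bile acid synthesis: bile acids activate FXR, FXR induces SHP, and SHP represses the synthesis enzymes. Nr1h4, encoding FXR on chromosome 10 from 89454234 to 89533585, had 55, 63 and 59 raw counts in the p62+/+ group and 17, 45 and 50 in the p62S351E/+ group. Its normalized counts were 44.1, 48.9 and 51.0 against 32.4, 56.7 and 38.7, and the groups overlapped. Nr1h4 was the tested regulator with a log2 fold change below 0, at -0.17 (SE 0.25, 95% interval -0.75 to 0.41, adjusted p = 0.759, edgeR). Per 1000 hepatocyte marker counts it had 2.53, 3.04 and 3.06 counts in the p62+/+ group and 1.31, 1.46 and 2.18 in the p62S351E/+ group, so that on this scale all p62S351E/+ mice were below all p62+/+ mice.

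Nr0b2, encoding SHP on chromosome 4 from 133553376 to 133556536, was a low transcript in both genotypes. It had 11, 9 and 6 raw counts in the p62+/+ group and 12, 10 and 19 in the p62S351E/+ group. Normalized, the values were 8.83, 6.99 and 5.18 against 22.9, 12.6 and 14.7, or 7.0 ± 1.82 and 16.7 ± 5.41 (SD, n = 3). All p62S351E/+ mice were above all p62+/+ mice after scaling, although the raw counts overlapped. Only mouse 1 of the p62+/+ group reached the filter's minimum count of 10. Nr0b2 was therefore tested through its p62S351E/+ counts, and a clearly lower level would not have been tested. Its log2 fold change was 1.22 (SE 0.38, 95% interval 0.34 to 2.09), a fold of 2.32, with an adjusted p of 0.230 from edgeR. Without p62S351E/+ mouse 3 it was 1.29 with an adjusted p of 0.0529 in that test, and with brain markers as a covariate it was 1.17 (SE 0.50, adjusted p = 0.647, edgeR).

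The receptors of foreign compounds differed from each other in their values. Nr1i2, encoding PXR on chromosome 16 from 38248323 to 38294824, had 26, 27 and 16 raw counts in the p62+/+ group and 14, 14 and 33 in the p62S351E/+ group. Its normalized counts of 20.9, 21.0 and 13.8 against 26.7, 17.6 and 25.6 overlapped. PXR mRNA gave a log2 fold change of 0.32 (SE 0.30, 95% interval -0.36 to 1.0, adjusted p = 0.607, edgeR), and it was -0.32 with library size only.

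Nr1i3, encoding CAR on chromosome 1 from 171213970 to 171220701, had the largest log2 fold change of the 8 tested. Its expected counts were 20.3, 64.3 and 59.0 in the p62+/+ group and 71.3, 93.9 and 141 in the p62S351E/+ group. Normalized, they were 16.3, 49.9 and 50.9 against 135.8, 118.4 and 109.3, or 39.0 ± 19.7 and 121 ± 13.5 (SD, n = 3). The lowest p62S351E/+ mouse (109.3) was well above the highest p62+/+ mouse (50.9). The log2 fold change of 1.63 (SE 0.40, 95% interval 0.71 to 2.56), a fold of 3.10, had an unadjusted p of 0.00359 and an adjusted p of 0.131 in edgeR's test. DESeq2 gave an adjusted p of 0.0148 and limma-voom one of 0.0155. In edgeR, Nr1i3 was also called when only genes with at least 10 counts in every library were tested (adjusted p = 0.0281) and without p62S351E/+ mouse 3 (log2 fold change 1.70, adjusted p = 0.00889). Over 19 alternatives, the log2 fold change lay between 0.95 and 1.90, and 4 of them called it.

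The lowest Nr1i3 value was that of p62+/+ mouse 1, which was also the p62+/+ mouse with the lowest Xist count. Without that mouse the log2 fold change was 1.27 (SE 0.26, adjusted p = 0.185, edgeR), and with Xist as a covariate it was 1.90 (SE 0.50, adjusted p = 0.290, edgeR). With brain markers as a covariate it was 1.52 (SE 0.47). Scaled to hepatocyte markers it was 1.05 (SE 0.47), and per 1000 hepatocyte marker counts the groups overlapped at 0.934, 3.10 and 3.06 against 5.49, 3.04 and 6.14.

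Nr1i3 counts were not whole numbers, because RSEM divides reads that match more than 1 gene. Of 4414 exonic bases of Nr1i3, 3304 are shared with exons of Tomm40l, an antisense gene that encodes a mitochondrial outer membrane protein. Tomm40l had 11, 11.5 and 19 normalized counts in the p62+/+ group and 60.3, 53.0 and 28.6 in the p62S351E/+ group, and the groups did not overlap. Its log2 fold change was 1.75 (SE 0.36, adjusted p = 0.0773, edgeR). The expected counts of Nr1i3 and Tomm40l together were whole numbers in all 6 libraries (34, 79 and 81 against 103, 136 and 178, within 1e-06), so the reads that RSEM divided were shared between these opposite-strand genes. Their sum was also higher in all p62S351E/+ mice. Another 1110 exonic bases of Nr1i3 are not shared with Tomm40l, and how many reads fell on them cannot be read from the table.

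**Figure D2:**
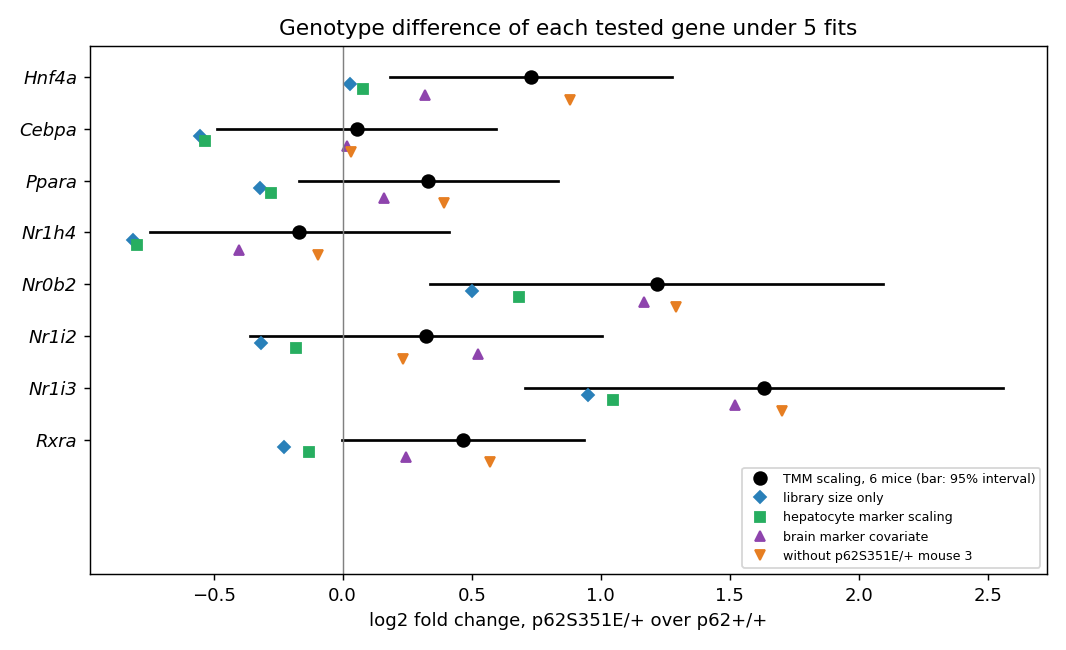
Log2 fold change, p62S351E/+ over p62+/+, of the 8 tested regulators in edgeR's test with TMM scaling (black point and 95% interval) and under 4 alternatives (coloured symbols). Cebpa, Ppara, Nr1i2 and Rxra change sign with library size only and with hepatocyte marker scaling, whereas Nr1i3, Nr0b2 and Hnf4a stay above 0 and Nr1h4 below 0 in the 5 fits drawn.

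The proportions among the 9 regulators within a library do not depend on scaling. Nr1i3 made up 9.70% ± 4.51 of their summed counts in the p62+/+ group and 21.0% ± 3.32 in the p62S351E/+ group (SD, n = 3), and the groups did not overlap. Nr1h4 made up 12.2% ± 0.419 and 7.23% ± 1.34, and Cebpa 13.0% ± 0.874 and 9.10% ± 1.78, with all p62S351E/+ mice lower for both. The shares of Ppara (17.0% ± 0.844 and 14.4% ± 0.989) and Foxa2 (2.39% ± 0.595 and 1.02% ± 0.673) were also lower in all p62S351E/+ mice. Because a larger Nr1i3 share makes every other share smaller, the shares were also computed without Nr1i3. Nr1h4 then had 13.5% ± 0.828 in the p62+/+ group and 9.11% ± 1.34 in the p62S351E/+ group, and Cebpa had 14.5% ± 1.23 and 11.5% ± 2.02, again with all p62S351E/+ mice lower. Hnf4a had 24.6% ± 1.24 and 30.9% ± 3.22, with all p62S351E/+ mice higher, and the other 5 regulators overlapped. These shares were chosen after the data were seen and were not tested. They rest on 294 to 669 counts per mouse, or 223 to 528 without Nr1i3.

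**Figure D3:**
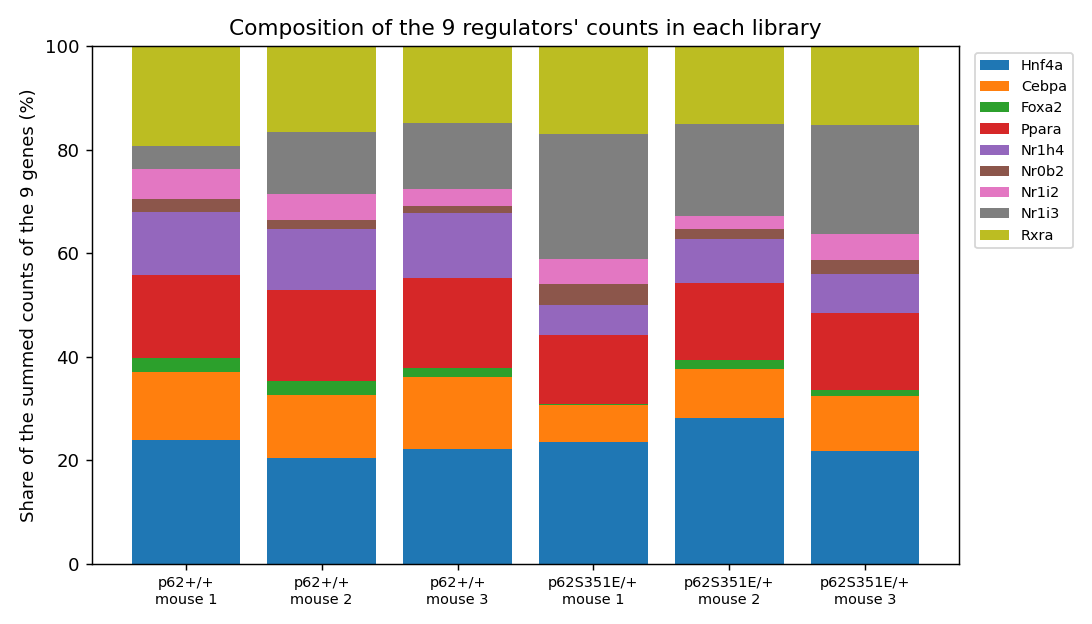
Stacked bars give the share (%) of each of the 9 regulators in their summed expected counts in each mouse. Nr1i3 takes 4.50% to 12.6% in the p62+/+ group and 17.6% to 24.2% in the p62S351E/+ group, and Nr1h4 takes 11.8% to 12.6% and 5.78% to 8.43%.

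Levels of different genes were compared as normalized counts per kilobase of exon. In p62+/+ mice the order of mean levels was Nr1h4 (20.8 ± 1.52), Cebpa (19.5 ± 1.69), Hnf4a (18.0 ± 0.543), Ppara (17.4 ± 2.10), Rxra (12.2 ± 0.953), Nr1i3 (8.84 ± 4.47), Nr1i2 (7.27 ± 1.60), Nr0b2 (6.18 ± 1.61) and Foxa2 (3.96 ± 1.0; SD, n = 3). Neighbours among the first 4 differed by less than the larger of their SDs, as did those from Rxra down to Nr0b2. In p62S351E/+ mice the order was Hnf4a (29.9 ± 8.2), Nr1i3 (27.4 ± 3.05), Ppara (21.9 ± 3.77), Cebpa (20.1 ± 4.65), Nr1h4 (18.5 ± 5.48), Rxra (16.9 ± 2.17), Nr0b2 (14.8 ± 4.78), Nr1i2 (9.12 ± 1.93) and Foxa2 (2.63 ± 2.01). Nr1i3 thus stood sixth in the p62+/+ group and second in the p62S351E/+ group, while Hnf4a and Nr1i3 differed there by less than the larger SD. From Ppara down to Nr0b2 neighbours also differed by less than that, whereas Nr1i3 and Ppara, Nr0b2 and Nr1i2, and Nr1i2 and Foxa2 differed by more. With the length of the longest coding transcript in place of all exons, Nr1i3 had a mean of 40.7 per kilobase and stood first in the p62S351E/+ group.

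Genes whose profile over the 6 mice was nearest to that of each regulator were sought among about 756 genes with at least 50 counts per mouse on average, by the root mean square difference of centred log2 CPM values. This is a description, and all genes share the depth and scaling of the 6 libraries. For Hnf4a the nearest were Aldh2 (0.03) and Aldh7a1 (0.04), which encode aldehyde dehydrogenases. For Nr1i3 they were Cyp2b9 (0.23) and Cyp4a10 (0.27), cytochrome P450 genes, at a larger distance. For Rxra they were Proz (0.04) and Serpinf2 (0.06), which encode secreted plasma proteins. Cebpa was nearest to Ndrg2 and Cyp2e1, Nr1h4 to Slc39a14 and Ndrg2, Ppara to Ivns1abp and Dennd5b, Nr0b2 to Ubr4 and Dpyd, and Nr1i2 to Cltc and Ddx3x.

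Other regulators of the same kind gave no call. Of 32 other liver-enriched transcription factors, 22 were tested and 0 were called in either direction, with a median log2 fold change of 0.13. Onecut1, encoding HNF6, had 23.3, 10.9 and 14.7 normalized counts in the p62+/+ group and 1.90, 3.78 and 6.20 in the p62S351E/+ group (log2 fold change -1.90, SE 0.48, adjusted p = 0.133, edgeR). Its raw counts were 29, 14 and 17 in the p62+/+ group and 1, 3 and 8 in the p62S351E/+ group. No p62S351E/+ mouse reached the filter's minimum count of 10, so Onecut1 was tested only because its p62+/+ counts were higher. Its direction was thus fixed by the filter. Atf5 and Srebf1, a regulator of lipid synthesis, had log2 fold changes of 1.02 and -0.88. Of 41 other nuclear receptors, 16 were tested and 0 were called, with a median of -0.12.

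Nr5a2 encodes LRH-1, a receptor that binds NR5A sites. Whether it binds the TCAAGG matches before Nr0b2, a motif added after the sequences had been seen, was not tested. Nr5a2 had 12, 10.1 and 11.2 normalized counts in the p62+/+ group and 36.2, 30.2 and 21.7 in the p62S351E/+ group (log2 fold change 1.38, SE 0.30, adjusted p = 0.0878, edgeR). The groups did not overlap. Thra, encoding a thyroid hormone receptor, had a log2 fold change of -1.21, with 17.7, 18.6 and 20.7 normalized counts against 3.81, 5.04 and 13.9. Its highest p62S351E/+ value was in mouse 3, the p62S351E/+ mouse with brain transcripts. In raw counts (2, 4 and 18) only that p62S351E/+ mouse reached the filter's minimum count of 10, so Thra was tested through its p62+/+ counts. Of 19 coregulators of nuclear receptors, 14 were tested and 0 were called, with a median of 0.05. Ppargc1a, encoding the coactivator PGC-1α, had a log2 fold change of 1.03, and Ep300 had one of 0.48 that was below 0 with library size only and with hepatocyte marker scaling.

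Without p62S351E/+ mouse 3, edgeR called 2 of 25 tested liver-enriched factors higher and 2 lower, 2 of 17 nuclear receptors higher and 1 lower, and 1 of 15 coregulators higher. In that fit the brain transcripts divided the mice exactly by genotype, and 5.21% of all tested genes were called higher and 15.3% lower. Onecut1 (adjusted p = 0.00698), Atf5 (0.00291), Nr5a2 (0.00324), Thra (0.00329) and Ppargc1a (0.0384) were among the calls of edgeR there. Onecut1 and Thra had raw counts below the filter's minimum of 10 in the remaining p62S351E/+ mice. Both were therefore tested only through their p62+/+ counts, which fixed the direction of these calls.

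Known target genes of the 9 regulators were examined in 5 lists, against 0.841% of all tested genes called higher and 12% with all p62S351E/+ mice above all p62+/+ mice. Lists overlapped: 7 of 24 HNF4A targets were on another list and 5 were hepatocyte markers. Of the 24 HNF4A targets, which were all tested, 1 was called higher, 0 were called lower and 8 had all p62S351E/+ mice above all p62+/+ mice, with a median log2 fold change of 0.59. The 15 hepatocyte markers had a median of 0.69, 0 calls in edgeR and 6 genes without overlap, all higher. Cyp2d26 was the HNF4A target that rose (log2 fold change 1.26, SE 0.22, adjusted p = 0.0456, edgeR). Apoc2 and Apoa4, apolipoprotein genes, had log2 fold changes of 1.61 and 2.07 that did not pass (adjusted p = 0.0759 and 0.0814, edgeR). Apoa4, among the 8 targets without overlap, had raw counts of 11, 6 and 4 in the p62+/+ group and 17, 19 and 22 in the p62S351E/+ group. Only mouse 1 of the p62+/+ group reached the filter's minimum count of 10. Apoa4 was therefore tested through its p62S351E/+ counts, and a clearly lower level would not have been tested.

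Of 22 targets of C/EBPA and FOXA2, 20 were tested, 2 were called higher and 0 lower, and the median was 0.85. All p62S351E/+ mice were higher for 12 of them and lower for 0. Abcc3, encoding a bile acid and conjugate exporter that is also a known NRF2 target, rose from 18.5, 23.3 and 23.3 normalized counts to 248, 215 and 175 (log2 fold change 3.29, SE 0.24, adjusted p = 0.00051, edgeR). It was called in each of 19 alternatives. Tdo2, encoding the first enzyme of tryptophan breakdown, rose with a log2 fold change of 1.76 (SE 0.25, adjusted p = 0.0181, edgeR). Ugt2b1 had one of 1.57 (SE 0.30, adjusted p = 0.061, edgeR).

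Of 32 PPARA targets, 22 were tested, 1 was called higher and 0 lower, with a median of 0.41. All p62S351E/+ mice were higher for 10 of these genes and lower for 1. The lower gene, named after its values were seen, was Fabp1, encoding a liver fatty acid binding protein (log2 fold change -1.61, SE 0.44, adjusted p = 0.188, edgeR). Acadm, encoding medium-chain acyl-CoA dehydrogenase, rose from 18.5, 27.2 and 20.7 normalized counts to 53.3, 68.0 and 57.3 (log2 fold change 1.42, SE 0.24, adjusted p = 0.0387, edgeR). Ehhadh, a peroxisomal enzyme gene, had a log2 fold change of 1.34 and Cyp4a14 one of 1.67, neither past the threshold.

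Of 23 targets of FXR and SHP, 18 were tested, 1 was called higher and 0 lower, with a median of 0.72. All p62S351E/+ mice were higher for 7 of them and lower for 1, Cyp7a1. Fetub, which encodes a secreted protease inhibitor, rose with a log2 fold change of 1.48 (SE 0.21, adjusted p = 0.0205, edgeR). Cyp7a1, the rate-limiting enzyme of bile acid synthesis that SHP represses, had 32.1, 66.0 and 79.5 normalized counts in the p62+/+ group and 15.2, 22.7 and 15.5 in the p62S351E/+ group. All p62S351E/+ mice were lower, but the log2 fold change of -1.72 (SE 0.36) had an adjusted p of 0.084 in edgeR's test. Without p62S351E/+ mouse 3 its adjusted p was 0.00998 in that test. Of the 18 tested genes, 14 had a log2 fold change above 0 and 4 below. Cyp8b1 and Cyp27a1, also of bile acid synthesis, had log2 fold changes of 0.67 (SE 0.35) and 0.41 (SE 0.31). The bile acid transporter genes Abcb11 and Slc10a1 were at 0.03 (SE 0.24) and -0.03 (SE 0.28). These genes were named after their values were seen, and none was called. Whether the feedback was active was not tested.

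The CAR and PXR targets had the most calls of the 5 lists. Because the lists were chosen with earlier results of these data known, this order is only a description. Of 31 genes, 24 were tested, and 4 were called higher and 0 lower. All p62S351E/+ mice were above all p62+/+ mice for 17 genes and below for 1. The median log2 fold change of the list was 0.90. Log2 fold changes were above 0 for 19 genes and below 0 for 5. The latter included Cyp3a11 (-1.06, SE 0.24, adjusted p = 0.109, edgeR) and Cyp3a16 (-1.29, SE 0.99), named after their values were seen. Cyp2b10 was on the list but was not tested. Cyp2a5, encoding a P450 enzyme that is also known to respond to NRF2, rose from 45.3, 134 and 104 normalized counts to 844, 921 and 788 (log2 fold change 3.18, SE 0.39, adjusted p = 0.00891, edgeR). Its lowest p62+/+ value was in mouse 1, as for Nr1i3. Cyp2c37 rose with a log2 fold change of 2.04 (SE 0.25, adjusted p = 0.00913, edgeR), and Abcc3, described above, is also on this list. The fourth call, Ugt1a9, is named here after its values were seen. It rose from 1.2, 2.52 and 2.82 normalized counts to 36.5, 35.8 and 15.6 (adjusted p = 0.0123, edgeR). It had at most 3.27 expected counts in any p62+/+ mouse, which is below the minimum count of the filter. Ugt1a9 was therefore tested only because its p62S351E/+ counts were higher. From such p62+/+ counts a lower level could not have been called, so the direction of this call was fixed by the filter. Cyp2a5, Cyp2c37, Cyp2d26 and Ugt1a9 belong to families of similar genes and had counts that were not whole, so the division of reads within each family is uncertain.

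**Figure D4:**
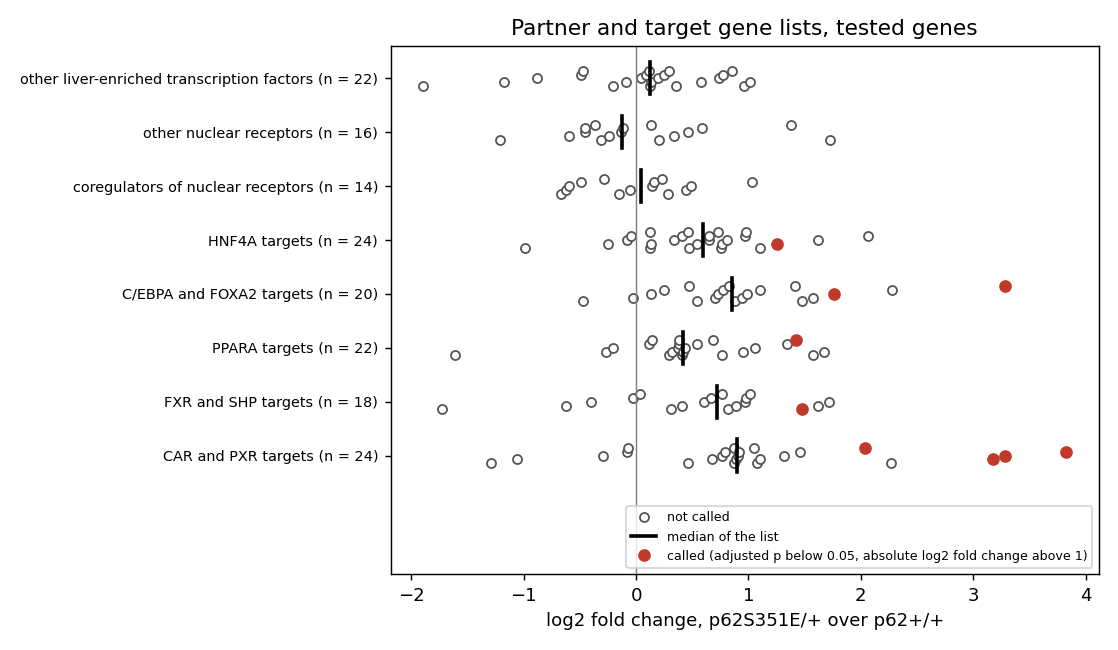
Each circle is the log2 fold change, p62S351E/+ over p62+/+, of 1 tested gene of the partner and target lists, filled red where called, with a bar at each list's median and the number tested in parentheses. The medians run from -0.12 for other nuclear receptors to 0.90 for CAR and PXR targets, whose 4 called genes lie above 2.

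The list medians also moved with scaling. Under hepatocyte marker scaling they were -0.06 for HNF4A targets, 0.18 for targets of C/EBPA and FOXA2, -0.26 for PPARA targets, 0.12 for targets of FXR and SHP and 0.27 for CAR and PXR targets, beside -0.59 over all tested genes. With brain markers as a covariate they were -0.01, 0.36, 0.05, 0.25 and 0.62, beside 0.01 over all tested genes. Without p62S351E/+ mouse 3, edgeR called higher 8 of 24 HNF4A targets, 10 of 20 targets of C/EBPA and FOXA2, 6 of 22 PPARA targets, 8 of 19 targets of FXR and SHP and 13 of 26 CAR and PXR targets, against 5.21% of all tested genes. It called lower 1 PPARA target and 1 target of FXR and SHP, against 15.3% of all tested genes.

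When 1 mouse was left out, calls over all genes went from 55 to between 17 and 33 in 5 of the 6 fits, and to 1308 without p62S351E/+ mouse 3. Leaving out each mouse in turn, edgeR called Cyp2a5 and Cyp2c37 in 4 of 6 fits, Ugt1a9 in 3, Tdo2 and Fetub in 2, and Acadm and Cyp2d26 in 1, without p62S351E/+ mouse 3. The highest adjusted p in these edgeR fits was 0.06 for Cyp2a5, 0.0875 for Cyp2c37, 0.0859 for Ugt1a9, 0.147 for Tdo2, 0.151 for Fetub, 0.2 for Acadm and 0.266 for Cyp2d26, while all log2 fold changes stayed above 1 (2.85 to 3.52 for Cyp2a5 and 1.92 to 2.24 for Cyp2c37). Cyp2a5 was not called without p62+/+ mouse 3 or without p62S351E/+ mouse 2, and Cyp2c37 not without p62+/+ mouse 1 or mouse 3. Ugt1a9 lost its call without any one of the p62+/+ mice, and Tdo2 and Fetub kept theirs only without p62S351E/+ mouse 2 or mouse 3.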

How the data were processed

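RNA-seq of livers from 3 p62+/+ and 3 p62S351E/+ mice was analysed. According to the methods and submitters' processing notes, the authors trimmed reads with Trim Galore, mapped them to mm10 with STAR and estimated counts with RSEM. The deposited values are these expected counts per gene symbol, not normalized. Versions, gene annotation and strand setting are not given in the sources used here.

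Expected counts were rounded, filtered with filterByExpr (minimum count 10), scaled by TMM and tested with edgeR 4.0.16 (quasi-likelihood, robust, legacy set to FALSE) in R 4.3.3, with Benjamini-Hochberg adjustment over 5945 genes. SEs were obtained from each gene's F statistic. limma 3.58.1, DESeq2 1.42.0, other scalings, filters and covariates, a replicate block and leaving out each mouse were alternatives. Scripts were tested on simulated data. Groups came from the labels, which name each sample as 1 mouse. Replicate numbers did not pair mice.

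Depth was 294 to 669 counts per mouse over the 9 genes, so values are imprecise. Positions and lengths are from GENCODE vM21 (GRCm38) and promoters from RefSeq (GRCm38.p6), where all 9 matched. The 9 genes and the gene and marker lists were chosen with earlier results of these data known. Named from each list were up to 3 tested genes with the smallest p among those without overlap between groups, and for each regulator the 2 nearest profiles. Some genes that this rule selects are not reported here.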

Additional observations from a re-analysis of the deposited data

How the results depend on the processing

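Every alternative listed could be run. edgeR called 55 genes over all tested, against 108 with DESeq2, 135 with limma-voom, 14 with library size only, 89 without a filter, 99 with at least 10 counts in every library, 29 with Xist as covariate, 16 with hepatocyte marker scaling (added after seeing the data), and 17 to 1308 when 1 mouse was left out, the highest without p62S351E/+ mouse 3. With the replicate number as a block, 19 genes and no regulator were called; correlations of same-numbered mice were 0.10, -0.12 and -0.0041, and not every mouse correlated best with its own number. Regulators called higher numbered 1 in place of 0 with DESeq2, limma-voom, at least 10 counts in every library, and without p62S351E/+ mouse 3 (0 to 1 leaving out each mouse). Their median of 0.40 was -0.27 with library size only, 0.28 without the 3 dominant genes, 0.087 with at least 10 counts in every library (where Foxa2 and Nr0b2 were not tested), 0.28 with the brain covariate and -0.16 with hepatocyte marker scaling. Without the 3 dominant genes Foxa2 was also tested (-0.59), so that median is over 9 regulators and not the 8 behind 0.40. Signs reversed with library size only and hepatocyte marker scaling for Cebpa (-0.55 and -0.53), Ppara (-0.32 and -0.28), Nr1i2 (-0.32 and -0.18), Rxra (-0.23 and -0.13), Sqstm1 (-0.39 and -0.27) and Ep300 (-0.25 and -0.14). Cebpa was also -0.18 with at least 10 counts in every library, and -0.093 to 0.23 leaving out each mouse. Without a filter the median of all genes was -0.16. The cause of these changes was not tested. Counts were lowest for Nr0b2 and Foxa2, at 1 to 19 per mouse.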
